A study of Mus musculus with 12 samples.

Results

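The small leucine-rich proteoglycans are secreted proteins of the extracellular matrix, and the expression of their genes was followed here in the mouse osteosarcoma cell lines Dunn and LM8. The genes were chosen by name. They are Dcn (decorin), Bgn (biglycan), Aspn (asporin), Lum (lumican), Fmod (fibromodulin), Omd (osteomodulin), Prelp (prolargin), Kera (keratocan), Ogn (osteoglycin) and Epyc (epiphycan). Of these 10 genes, 9 had a matched probe, 1 probe each, among 20144 genes matched in all, and Prelp had no matched probe and was not analysed here. Dunn, the parental line, metastasizes rarely, and the highly metastatic LM8 line came from it through repeated selection in mice. Dunn cells were taken at passage 25 (early) or 86 (late), LM8 cells at passage 24 (early) or 91 (late). Each of the 4 groups had 3 Agilent single-colour arrays, 12 in all, and no group carried a treatment or an engineered allele. Each line is a single lineage whose cells were frozen, thawed and cultured before RNA was taken. The p-values measure the spread between 3 samples a group, which may be technical. Where passages were pooled, they also take in the difference between the passages.

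Small leucine-rich proteoglycans consist of a curved core of leucine-rich repeats, most with chains of chondroitin, dermatan or keratan sulfate. They bind collagen and shape how its fibrils assemble, and several also bind growth factors and their receptors, among them transforming growth factor beta. In bone, decorin and biglycan belong to the proteoglycans of the matrix that osteoblasts lay down, and osteomodulin is a keratan sulfate proteoglycan of mineralized tissue. By their sequence, Dcn, Bgn and Aspn are placed in class I, Fmod, Lum, Prelp, Kera and Omd in class II, and Epyc and Ogn in class III.

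The values are processed signals, the background-subtracted brightness that the Agilent Feature Extraction software assigns to a spot. Comparisons used log2 signals from which the array's own 75th percentile had been taken away. This percentile was 287 to 603 on the early Dunn arrays and 686 to 1903 on the other arrays, and 40.1% to 60.1% of spots were well above background. The 12 arrays lay on 3 slides, each with 1 array of every group at a fixed position, so that position cannot be told apart from group. On slide 1, the lowest signal called well above background was 32.3 and 36.4 on the early and late Dunn arrays, against 9.59 to 16.7 on the other 10 arrays. Of 8 measured osteoblast markers, all 8 were well above background on at least 3 arrays, and 6 were so on all 12. Of the other cell type markers, 4 of 5 for chondrocytes, 2 of 3 for tendon, 1 of 3 for blood cells (Csf1r), 1 of 3 for endothelium (Pecam1) and 0 of 4 for epithelium were above background on at least 3 arrays, and Ptprc, Cdh5, Epcam and Tnmd were so on 2 arrays at most. In bulk RNA, fewer cells that express a gene and less RNA per cell cannot be told apart.

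A gene was called when its adjusted p in limma, by Benjamini-Hochberg over all probes, was under 0.05 and its higher group was well above background on at least 2 of each 3 arrays. Lum and Omd were up-regulated in LM8 against Dunn cells at both passages, by 23.7-fold for Lum and at least 17.2-fold for Omd in early cells. Fmod and Ogn were down-regulated during culture of LM8 cells, by 8.35-fold and 9.72-fold, and late LM8 cells also had less Fmod than late Dunn cells. Epyc was well above background in late Dunn cells, whereas Dcn and Bgn were not called in any comparison and Aspn and Kera were not well above background on any array.

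**Figure D1:**
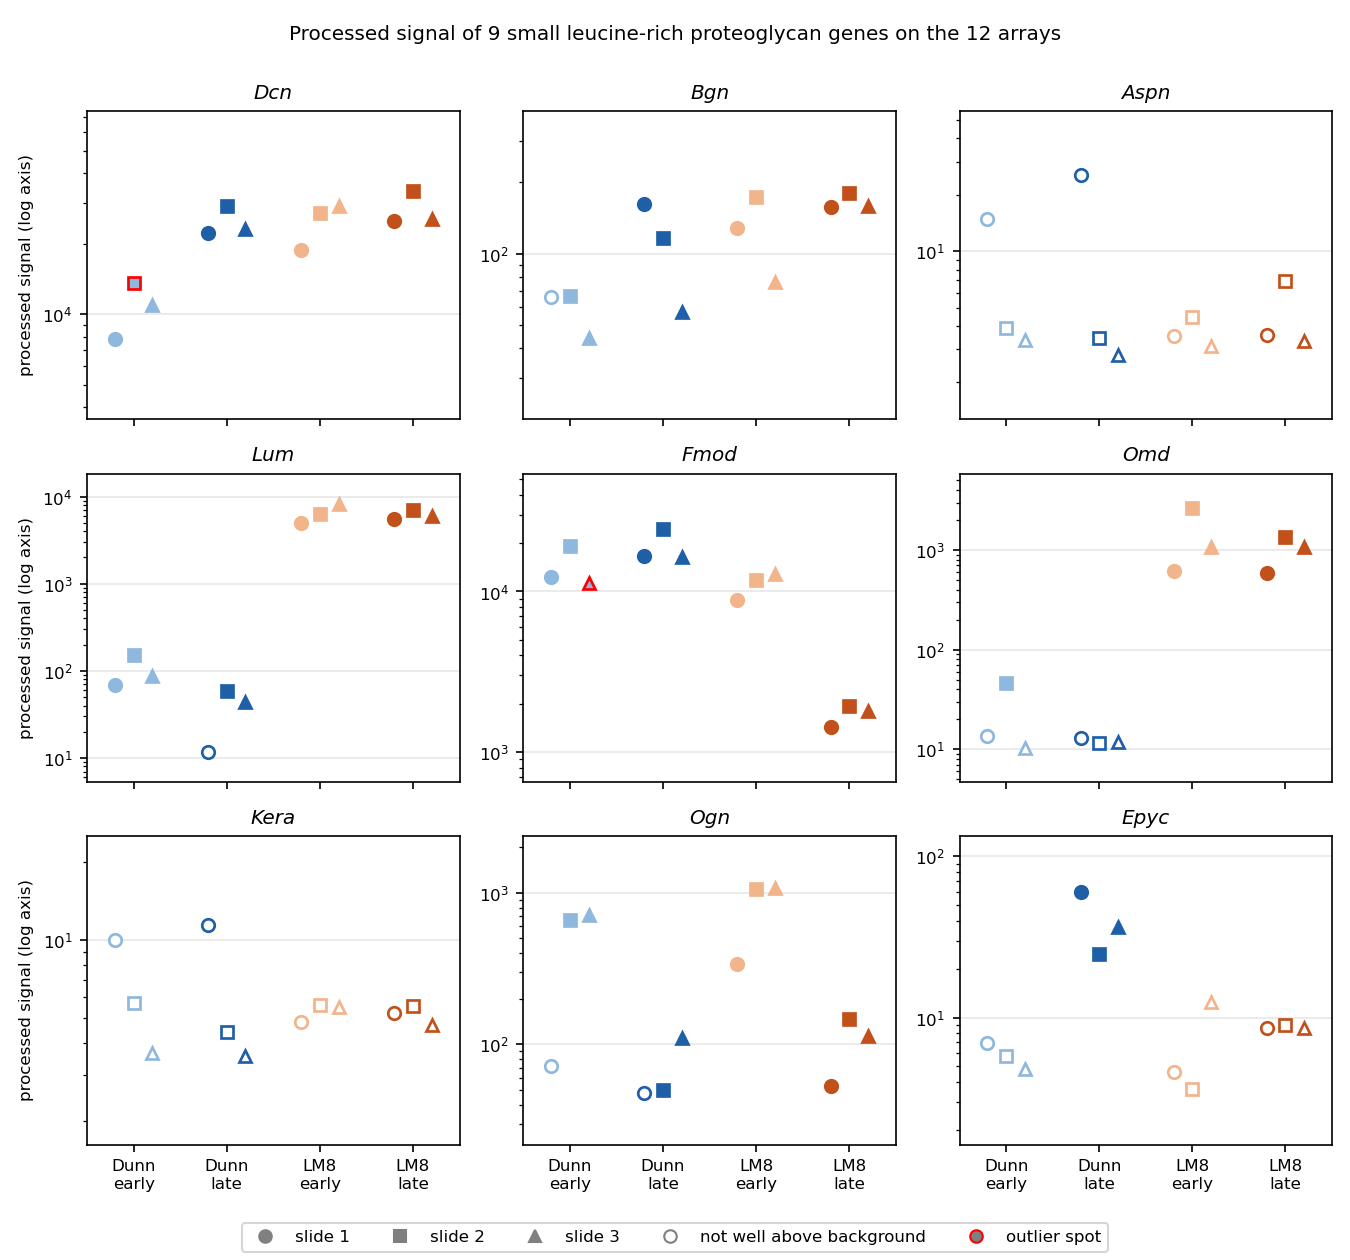
Processed signal (log axis) of the 9 small leucine-rich proteoglycan genes with a probe on each of the 12 arrays, by group, with 1 symbol for each slide. Open symbols are not well above background and red outlines mark outlier spots. Lum and Omd separate the LM8 arrays from the Dunn arrays, Fmod and Ogn fall in late LM8 cells, and Epyc has filled symbols in late Dunn cells alone.

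Sequence upstream of the start of a gene is shown for the genes with a called change, as far as the RefSeq table of promoters (mouse assembly GRCm38.p6) held an entry. It held one for 8 of the 10 genes and none for Dcn and Lum. The 150 bases before the start of Fmod (chr1:134037104-134037253), Omd (chr13:49582312-49582461), Ogn (chr13:49607865-49608014) and Epyc (chr10:97643918-97644067), all on the + strand, are given 5′ to 3′ and in lower case. Capitals mark matches on either strand to a TATA box (TATAAA), a RUNX motif (TGTGGT) or an AP-1 motif (TGANTCA).
Fmod: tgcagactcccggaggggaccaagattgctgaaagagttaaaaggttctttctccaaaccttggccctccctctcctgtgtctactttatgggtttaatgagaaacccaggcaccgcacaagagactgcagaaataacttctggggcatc
Omd: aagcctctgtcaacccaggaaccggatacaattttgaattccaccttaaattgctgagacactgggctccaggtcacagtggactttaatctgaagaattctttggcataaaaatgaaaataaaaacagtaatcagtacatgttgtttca
Ogn: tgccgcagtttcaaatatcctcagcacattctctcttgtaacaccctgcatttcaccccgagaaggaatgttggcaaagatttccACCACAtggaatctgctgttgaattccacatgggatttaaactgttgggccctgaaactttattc
Epyc: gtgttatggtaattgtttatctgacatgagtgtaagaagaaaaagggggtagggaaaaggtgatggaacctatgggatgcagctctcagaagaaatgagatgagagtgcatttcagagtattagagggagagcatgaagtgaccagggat
The Ogn window held 1 match, to the RUNX motif on the opposite strand, starting 65 bases before the start, and no match to the other 2 motifs. The windows of Fmod, Omd and Epyc held no match to any of the 3 motifs, which says nothing more than that these letters are not there. Of 32817 windows of the same length, 8.39% held the RUNX motif, 7.58% the TATA box and 4.24% the AP-1 motif. The G and C content of the windows was 49.3% for Fmod, 38.0% for Omd, 44.0% for Ogn and 42.7% for Epyc.

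Lum encodes lumican, a keratan sulfate proteoglycan that binds collagen fibrils. Its signal was 68.2, 153 and 86.9 on the early Dunn arrays and 11.7, 58.5 and 44.5 on the late Dunn arrays, the first of which was not well above background. It was 4916, 6277 and 8292 in early LM8 and 5563, 7012 and 5970 in late LM8 cells. Every LM8 array was above every Dunn array, and the scaled values of early and late Dunn cells did not overlap. On the scaled log2 axis, the group means were −2.07 ± 0.40 in early Dunn, −4.67 ± 1.17 in late Dunn, 2.50 ± 0.27 in early LM8 and 2.09 ± 0.19 in late LM8 cells (SD, n = 3 each). The difference between LM8 and Dunn was 4.57 in early cells (standard error 0.35, 23.7-fold, adjusted p = 0.00179 in limma) and 6.76 in late cells (standard error 0.61, 108-fold, adjusted p = 0.00759 in limma), with 2 of 3 late Dunn arrays well above background. Over these 2 arrays the late fold was 67.6, and with the dim array set to the lowest signal called well above background it was at least 73.9-fold. The late call of Lum held under 12 of 16 alternatives, but not with the slide as a block or without any 1 late LM8 array. When 1 array was left out, the late difference ranged from 6.08 to 7.12. Early and late LM8 cells, neighbours in this order, differed by −0.41 (95% interval −0.94 to 0.12, adjusted p = 0.314 in limma).

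In Dunn cells, Lum was 6.07-fold lower at late passage, a log2 difference of −2.60 with a 95% interval from −4.22 to −0.98. This did not pass the adjusted level in limma (unadjusted p = 0.00812, adjusted p = 0.626), although it was lower on each of the 3 slides, by −3.52, −2.06 and −2.22. The late array of slide 1 was dim, and with it at the lowest signal well above background Lum was at least 4.15-fold lower. With 1 fit over all 12 arrays the adjusted p was 0.0382. The decline with passage was larger in Dunn than in LM8 cells by 2.19 on the log2 scale (interaction of line and passage, standard error 0.71), which did not pass either (adjusted p = 0.485 in limma).

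The 3 genes whose scaled signal was most like that of Lum over the 12 arrays, among 11773 genes well above background on at least 3 arrays, were Epha8 (Pearson's r = 0.993), C1qtnf5 (r = 0.986) and Mapk8ip1 (r = 0.981). Epha8 encodes an ephrin receptor, and its group means were −3.13, −4.46, −0.27 and −0.57 in early Dunn, late Dunn, early LM8 and late LM8 cells. The 4 groups differ widely for all of these genes, so that the 12 points of each correlation are not independent and r is a description.

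Omd encodes osteomodulin, also called osteoadherin, which binds the mineral and the cells of bone. Its signal was 13.5, 46.5 and 10.3 on the early Dunn arrays, of which only the second was well above background, and 13.1, 11.4 and 11.8 on the late Dunn arrays, none of which was. The signal was 620, 2651 and 1076 in early LM8 and 582, 1348 and 1063 in late LM8 cells. The LM8 arrays lay above the Dunn arrays without overlap, and the 2 LM8 groups overlapped each other. Between early LM8 and early Dunn cells the fitted log2 difference of Omd was 4.55 (standard error 0.53, adjusted p = 0.00811 in limma), in which 2 of the 3 early Dunn values are upper limits. With these 2 set to the lowest signal called well above background on their arrays, Omd was at least 17.2-fold higher in early LM8 cells. At late passage it was at least 30.3-fold higher in LM8 cells (adjusted p = 0.00162 in limma), a bound because the late Dunn arrays gave only an upper limit. For such bounds, a dim value was set on each array to the higher of the gene's own signal and the lowest signal called well above background.

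The early call of Omd did not hold with normexp background correction (difference 1.89, adjusted p = 0.0551 in limma) or by the methods' t-test on the same values (adjusted p = 0.0535). It did not hold without the 3rd early Dunn array (adjusted p = 0.0621) or the 3rd early LM8 array (adjusted p = 0.0546) either. On slide 2, where the early Dunn array measured Omd, the difference was 4.71, and it was at least 3.05 and 4.55 on slides 1 and 3. Between late and early LM8 cells Omd differed by −0.73 (95% interval −1.73 to 0.28, adjusted p = 0.339 in limma). Between late and early Dunn cells no fold of Omd can be given, as 1 of 3 early arrays and no late array was above background (adjusted p = 0.707 in limma).

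Fmod encodes fibromodulin, a keratan sulfate proteoglycan that takes part in collagen cross-linking. Its signal was 12300, 19210 and 11370 on the early Dunn arrays, the last being an outlier spot that was left out of the fit. It was 16660, 24560 and 16360 in late Dunn, 8876, 11850 and 12930 in early LM8 and 1433, 1937 and 1798 in late LM8 cells. The late LM8 arrays lay far below all others, and the scaled values of the 4 groups did not overlap. The group means on the scaled log2 axis fell in the order early Dunn (4.99 ± 0.0013, SD, n = 2), late Dunn (4.57 ± 0.11, SD, n = 3), early LM8 (3.30 ± 0.13, SD, n = 3) and late LM8 (0.24 ± 0.19, SD, n = 3). Late LM8 cells had less Fmod than early LM8 cells (log2 difference −3.06, standard error 0.19, 8.35-fold, adjusted p = 0.000929 in limma), and the difference was −3.02, −3.15 and −3.02 on the 3 slides. Late LM8 cells had 20.1-fold less Fmod than late Dunn cells (log2 difference −4.33, standard error 0.22, adjusted p = 0.00131 in limma).

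In Dunn cells the change of Fmod with passage was −0.42 (95% interval −1.31 to 0.46, adjusted p = 0.782 in limma). The effect of passage therefore differed between the lines by −2.64 (standard error 0.31, adjusted p = 0.0104 in limma), the interaction of line and passage. Without slide 1 this interaction was −2.72 with an adjusted p of 0.14, and in the deposited table without scaling it was −2.995 with an adjusted p of 0.0759. Early LM8 cells had 3.23-fold less Fmod than early Dunn cells, which was just short of the level (log2 difference −1.69, standard error 0.34, adjusted p = 0.0589 in limma). With the outlier spot kept, the difference was −1.59 and passed (adjusted p = 0.0454 in limma), as it did with quantile normalization (−1.63, adjusted p = 0.0243). It was called under 6 of 16 alternatives, over which the difference ranged from −1.75 to −0.47. Relative to the median of all probes, Fmod differed by −0.84 between early LM8 and early Dunn cells. That median was −0.85, but −0.30 over probes well above background on at least 2 arrays of a compared group.

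**Figure D2:**
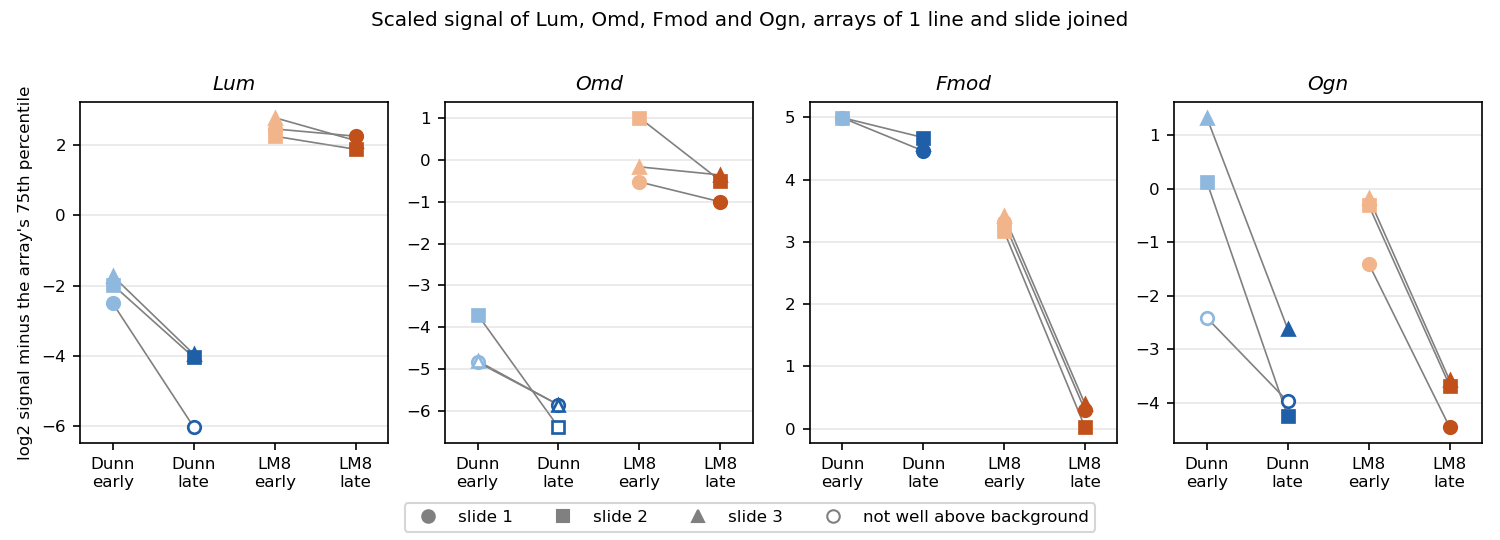
Scaled log2 signal (log2 signal minus the 75th percentile of the array) of Lum, Omd, Fmod and Ogn by group, with lines that join the early and late array of 1 line on 1 slide. Open symbols are not well above background, and the outlier spot of Fmod is left out. Fmod changes by −3.02 to −3.15 in LM8 cells on all 3 slides, and Ogn falls on every slide in both lines. Both Dunn values of Ogn on slide 1 are open symbols.

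Ogn encodes osteoglycin, or mimecan, a small matrix protein first isolated from bone. Its signal was 72.4, 657 and 719.5 in early Dunn and 48, 50.2 and 111 in late Dunn cells. On slide 1 both Dunn values were not well above background. It was 337, 1061 and 1073 in early LM8 and 53.0, 148 and 114 in late LM8 cells, all well above background. On each slide Ogn was lower in late than in early cells of both lines, and the LM8 groups did not overlap. The fall of Ogn between early and late LM8 cells was −3.28 (log2 difference, standard error 0.40, 9.72-fold, adjusted p = 0.0104 in limma), and it was −3.06, −3.37 and −3.42 on the 3 slides. This call did not hold in 1 fit over all 12 arrays (adjusted p = 0.176), by the methods' t-test on the same values (adjusted p = 0.113) or in the deposited table without scaling (adjusted p = 0.0629).

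In Dunn cells the mean difference of Ogn with passage was −3.30 on the log2 scale, 9.85-fold, with a standard error of 1.05, and it did not pass the adjusted level (unadjusted p = 0.0212, adjusted p = 0.782 in limma). Both values of slide 1 entered this fold, although neither was well above background. With the late one left out the fold was 8.7, and with any 1 array left out the difference ranged from −4.35 to −2.48. The early Dunn arrays spread from −2.42 to 1.33 on the scaled axis, and the value of slide 1 lay close to the highest late array at −2.63. The interaction of line and passage was 0.02 (95% interval −2.65 to 2.69), too wide to tell whether the falls differed. Between LM8 and Dunn cells Ogn differed by −0.31 at early (95% interval −2.55 to 1.93) and by −0.29 at late passage (95% interval −1.60 to 1.03), with adjusted p of 0.812 and 0.699 in limma.

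Epyc encodes epiphycan, a dermatan sulfate proteoglycan known from growth plate cartilage. Its signal was 60.5, 24.8 and 36.3 on the late Dunn arrays, all well above background. On the other 9 arrays it lay between 3.58 and 12.5, not well above background. The late Dunn arrays were above all others without overlap. Epyc was at least 5.51-fold lower in late LM8 than in late Dunn cells (adjusted p = 0.0415 in limma), and this call was the least stable, as 6 of 16 alternatives retained it and the adjusted p was 0.113 with quantile normalization. Late Dunn cells had at least 1.25-fold more Epyc than early Dunn cells, with an unadjusted p of 0.0187 and an adjusted p of 0.779 in limma. Of the 5 chondrocyte markers, Col2a1 was well above background on every array used, with signals of 29750 to 96690. Sox9 was above background on 1 of 3 arrays of each Dunn group and on all LM8 arrays, and Col9a1 on 2 of 3 late Dunn, 2 of 3 late LM8 and no early arrays. Matn1 was not well above background on any array and Acan was so on 0 of 3 early Dunn, 1 of 3 late Dunn, 1 of 3 early LM8 and 3 of 3 late LM8 arrays, and their part in the level of Epyc was not tested.

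Dcn encodes decorin, which binds collagen and transforming growth factor beta. Its signal was 7800, 13630 and 10920 on the early Dunn arrays, the second an outlier spot left out of the fit, and 22320, 28930 and 23060 on the late Dunn arrays. It was 18890, 27190 and 28880 in early LM8 and 24910, 33540 and 25600 in late LM8 cells. The lower signals of early Dunn cells went with a lower 75th percentile of these arrays, and after scaling late and early Dunn cells differed by 0.16 (95% interval −0.970 to 1.296). In LM8 cells the difference with passage was −0.19 (95% interval −0.63 to 0.25). Late LM8 cells were below late Dunn cells without overlap, by −0.69 (95% interval −1.22 to −0.17), and the adjusted p was 0.173 in limma. The median was −0.66 over all probes, but −0.16 over the probes well above background on at least 2 arrays of a compared group. When only these probes were kept before the fit, the late difference of Dcn had an adjusted p of 0.037. The methods' t-test also called this difference. With passages pooled Dcn differed by −0.53 (95% interval −0.98 to −0.09, adjusted p = 0.0533 in limma). The pooled median was −0.78 over all probes and −0.25 over probes that passed the same filter. That pooled difference of Dcn was called under 3 of 22 alternatives.

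Bgn encodes biglycan, the relative of decorin that is abundant in bone matrix. Its probe gave 65.6, 66.7 and 44.2 in early Dunn, the first not well above background, and 162, 116 and 56.9 in late Dunn cells. It gave 129, 174 and 76.1 in early LM8 and 157, 181 and 160 in late LM8 cells. The scaled values of the groups overlapped, and the 4 differences lay between −0.42 and 0.11 with adjusted p of 0.456 to 0.986 in limma. The widest of their 95% intervals, that of Dunn passage, ran from −1.27 to 0.98. Aspn, which encodes an inhibitor of transforming growth factor beta in cartilage, was not well above background on any array, with signals of 2.79 to 25.4, and neither was Kera, a keratan sulfate proteoglycan known from the cornea, with 3.56 to 11.5.

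**Figure D3:**
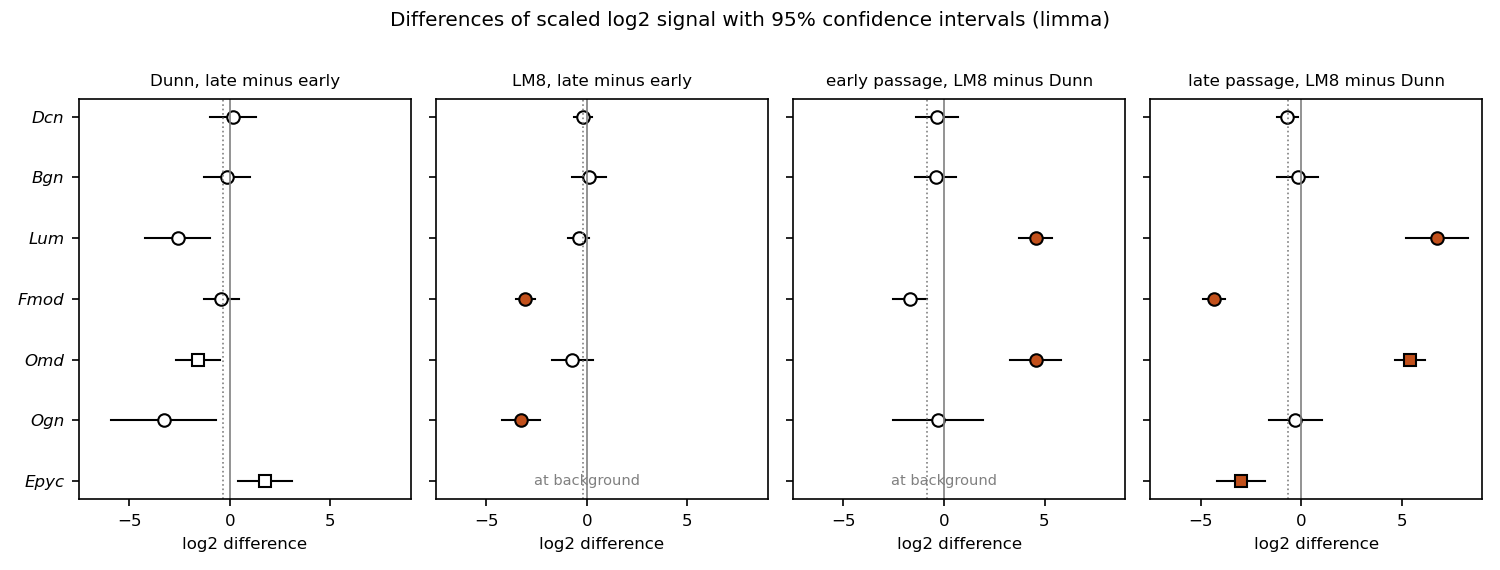
Log2 differences of scaled signal with 95% confidence intervals (limma) for 7 genes in 4 comparisons. Filled symbols passed the adjusted level, squares are fitted values where 1 group was not well above background on any array, and the dotted line is the median of all probes. Lum and Omd have fitted values between 4.55 and 6.76 in both comparisons of the lines, and Fmod and Ogn are the filled symbols of LM8 passage.

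For long-term culture, the share of the proteoglycan genes called is given beside that of all genes. In Dunn cells, 0 of 9 genes were called between late and early passage by limma, where 0.00497% of all genes tested were, and the methods' t-test called 0. An unadjusted p under 0.05 was found for 4 (Lum, Ogn, Omd and Epyc), as for 6.81% of all genes. Of these, Omd was well above background on 1 early and 0 late Dunn arrays. The study used a change over 2-fold with an unadjusted p under 0.05. Here and below, that level was applied with the requirement on background kept, which is an addition to it. At this level, Lum and Ogn were lower and Epyc higher in late Dunn cells, 3 of 9 genes against 4.33% of all genes. Omd also met the fold and the p (log2 difference −1.59, unadjusted p = 0.0121 in limma), but not the requirement on background. In LM8 cells, Fmod and Ogn were called, 2 of 9 genes against 2.56% of all genes, and they were the same 2 at the level of the study, which 4.74% of all genes met. The interaction of line and passage was called for Fmod, 1 of 9 genes against 0.606%, and for Lum too at over 2-fold and an unadjusted p under 0.05, which 5.02% of all genes met. Whether the effects of passage on the other genes differed between the lines was not shown, and the comparisons within a line and between the lines share their arrays.

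Between the lines, Lum and Omd were called in early cells, 2 of 9 genes against 3.72% of all genes. In late cells Lum, Omd, Fmod and Epyc were called, 4 of 9 genes against 3.71%. At over 2-fold with an unadjusted p under 0.05 instead, and the requirement on background kept, Fmod joined the early calls (3 of 9 genes against 13.3%). The late calls were the same 4 (against 10.8%). Aspn, Epyc and Kera also met the fold and the p in early cells and with passages pooled, but not the requirement on background. With early and late arrays pooled, LM8 cells differed from Dunn cells in Lum (5.66, standard error 0.62), Omd (4.98, standard error 0.46) and Fmod (−2.97, standard error 0.70), 3 of 9 genes against 22.5% (11.3% at over 2-fold and an unadjusted p under 0.05). The pooled comparison set 6 arrays against 6 without a term for passage, so that differences between passages entered its spread. It uses the same arrays as the early and the late comparison and is not separate evidence. With the slide as a block, no call remained in late cells, where the adjusted p in limma was 0.0819 for Lum, 0.0531 for Omd, 0.0531 for Fmod and 0.0944 for Epyc, with the same differences. Without each late LM8 array in turn, 2 of these 4 calls remained, those of Fmod and Omd. Without slide 1 the pooled difference of Fmod had an adjusted p of 0.0753 in limma.

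The scaling of the arrays bears on all differences between the lines. The median over all probes was −0.33 between late and early Dunn, −0.19 between late and early LM8, −0.85 between early and −0.66 between late LM8 and Dunn cells. Without scaling these medians were 0.63, 0.17, 0.61 and 0.20. Over scaled probes well above background on at least 2 arrays of a compared group, they were −0.16, −0.01, −0.30 and −0.16. Relative to the scaled median of all probes, dim ones included, Lum was higher in LM8 by 5.42 in early and 7.42 in late cells. Omd was higher by 5.41 and 6.08, and Fmod was lower in late LM8 by −3.67. Against the medians of the brighter probes, Lum and Omd would exceed by less and Fmod would fall by more. Over the 9 genes the median difference between the lines was −0.42 in early and −0.69 in late cells, against −0.76 and −0.55 over all genes tested.

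Most of these genes lie next to each other. By the order of protein-coding genes in GRCm38.p6, Dcn, Lum, Kera and Epyc are neighbours on chromosome 10, Aspn, Omd and Ogn on chromosome 13, where Ecm2 precedes Aspn, and Prelp and Fmod on chromosome 1, where Optc precedes Prelp. Bgn is on the X chromosome. No neighbours were called in the same direction in 1 comparison. Pairs with Kera, Aspn, Ecm2, Optc or Prelp could not be, as these were at background or had no probe. This left only Dcn beside Lum and Omd beside Ogn, too few to tell whether neighbours change together. On chromosome 10, Lum was higher in LM8 cells while Epyc was lower there at late passage, Dcn was not called and Kera was at background. On chromosome 13, Omd was higher in LM8 cells at both passages and was not called with passage, whereas Ogn fell with passage in LM8 cells and was not called between the lines. Ecm2 and Optc, related small leucine-rich proteins, were not well above background on any array.

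**Figure D4:**
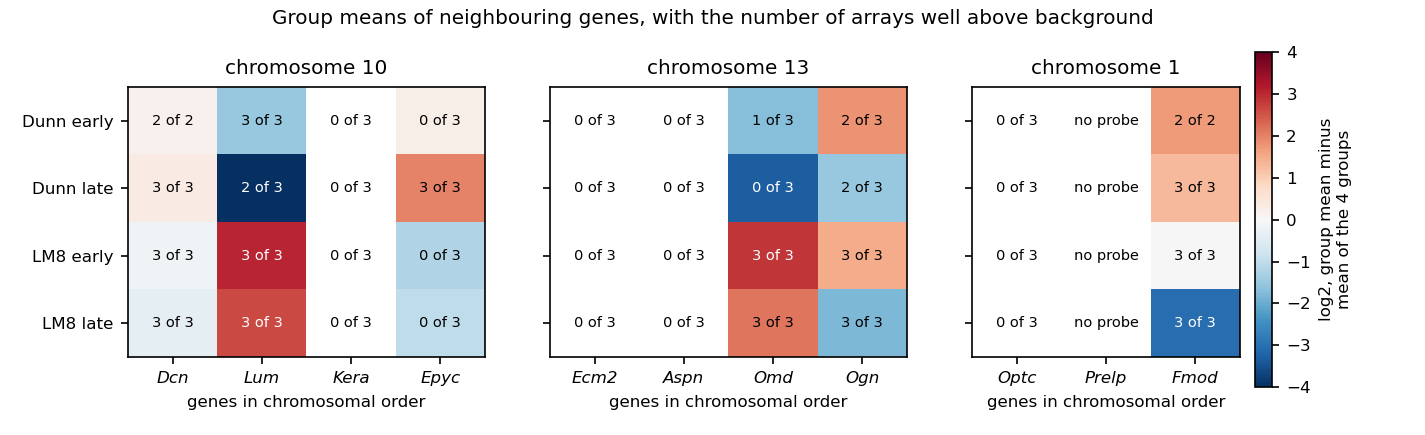
Group means of scaled log2 signal, each gene centred on the mean of its 4 groups (colour), for neighbouring genes on chromosomes 10, 13 and 1. Numbers give how many of the arrays used were well above background, and genes at background on all arrays are left white. Columns differ on chromosome 10, such as Lum and Epyc with Kera between them, and on chromosome 13, Omd beside Ogn. On chromosome 1 only Fmod is coloured, as Optc was at background and Prelp had no probe.

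Of 7 other small leucine-rich proteins, 2 were well above background on at least 3 arrays. Podnl1, a podocan-like protein, was so on all 12 and was lower in LM8 than in Dunn cells by 7.14-fold at early (adjusted p = 0.00601 in limma) and 18.7-fold at late passage (adjusted p = 0.00114 in limma). Its signal was 1600 to 2642 in early and 4573 to 6393 in late Dunn cells, and 630 to 929 in early and 423 to 741 in late LM8 cells. The Dunn and LM8 arrays did not overlap.

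Among enzymes that build the sugar chains of these proteoglycans, few were called between the lines at a single passage. Of 22 genes for chondroitin and dermatan sulfate synthesis, 0 were higher and 3 lower in LM8 than in Dunn cells, at early and again at late passage, against 3.72% and 3.71% of all genes called in either direction. Over the list the median difference was −0.81 in early and −0.40 in late cells, against −0.76 and −0.55 over all genes. With passages pooled 1 was higher and 10 were lower, where 22.5% of all genes were called and 25.4% of these were higher (95% in the unscaled table), and the median was −0.50 against −0.66. The 3 genes called at both passages were Csgalnact1, which starts chondroitin chains and was at least 48.8-fold lower at early and at least 43.5-fold lower at late passage, and the sulfotransferases Chst7 (5.82-fold and 33.8-fold) and Chst3 (6.10-fold and 10.3-fold). In LM8 cells, Chst7 (9.47-fold) and Chst3 (3.27-fold) also fell with passage and Chst11 rose by at least 1.44-fold, and the fall of Chst7 differed between the lines (interaction −2.54, adjusted p = 0.0379 in limma). Of 12 genes for keratan sulfate synthesis, the chain type of Lum, Fmod and Omd, 1 was called in the comparisons of single passages, Chst2, which was 2.75-fold lower in late LM8 than in late Dunn cells. With passages pooled, 2 were higher (Chst5 and Fut8) and 2 lower (St3gal3 and Chst2).

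Of 9 matched collagens that these proteins bind, 8 were well above background on at least 3 arrays. Col6a2 was lower in LM8 than in Dunn cells at early (5.03-fold) and late passage (8.81-fold). Col6a1 was 8.31-fold lower in late LM8 than in late Dunn cells and fell 2.43-fold with passage in LM8 cells. Of 17 growth factors and receptors that they bind, Egfr, the receptor of epidermal growth factor, was at least 10.3-fold higher in early and at least 5.26-fold higher in late LM8 cells than in Dunn cells, where it was at background, and it fell 3.78-fold with passage in LM8 cells. Tlr4 was 2.83-fold higher in late LM8 than in late Dunn cells. Of 10 proteases that cleave them, Mmp13 was 15.0-fold lower in early and 89.4-fold lower in late LM8 cells than in Dunn cells, and Mmp2 was 9.30-fold and 7.73-fold higher. In late LM8 cells 2 of 3 arrays measured Mmp13 above background. Mmp13 fell 8.66-fold with passage in LM8 cells, and its change differed between the lines (interaction −2.57, adjusted p = 0.0455 in limma). With passages pooled, 0 collagens were higher and 3 lower in LM8 cells. Of the growth factors and receptors 2 were then higher and 3 lower, as were 2 and 3 of the proteases. Of all genes, 22.5% were called with passages pooled, 3.72% between early lines, 3.71% between late lines and 2.56% in LM8 passage.

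Between late and early Dunn cells, 0 genes of these lists were called by limma, where 0.00497% of all genes tested were. An unadjusted p under 0.05 was reached by 2 of the 22 chondroitin and dermatan sulfate genes and 4 of the 17 growth factors and receptors, against 6.81% of all genes. It was reached by 0 of the keratan sulfate, collagen, protease and other small leucine-rich genes. Of the cell type markers, Scx, a tendon transcription factor, was 8.58-fold lower in early and 10.65-fold lower in late LM8 than in Dunn cells and fell 3.19-fold with passage in LM8 cells. Krt5, an epithelial keratin, rose at least 1.07-fold with passage in LM8 cells, with 2 of 3 late arrays above background. No osteoblast, chondrocyte, blood or endothelial marker was called in the 4 comparisons of single passages or within a line, and with passages pooled Alpl was higher and Ibsp, Spp1 and Col2a1 lower in LM8 cells. Whether these markers have a part in the differences of the proteoglycan genes was not tested.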

How the data were processed

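Total RNA of 12 samples of the mouse lines Dunn and LM8 was hybridised by the authors to Agilent single-colour arrays, and the deposited files hold the scanner output of Agilent Feature Extraction (version 10.7.3, per the file headers), in which the processed signal is a background-subtracted intensity. A deposited table of the series held the same intensity values within 0.5%, unscaled. The 1st early Dunn array was deposited with values rounded to 3 significant digits. Outlier spots (133 to 1483 an array) and control spots were left out here, no spot was saturated, and spots of a probe were averaged. This removed Dcn on 1 and Fmod on another early Dunn array, so that n = 2 there. Each array's 75th percentile was subtracted on the log2 scale. Of 39429 probes, 67.4% were matched by their accession to 1 gene of the RefSeq table, and a gene was read from its probe with the highest mean signal. Group differences were tested with limma 3.58.1 in R 4.3.3 on all probes, with 2-group fits on the groups compared and 1 fit with line, passage and their product for the interaction. Only the 2-group fits between late and early cells of each line were checked on simulated data. The number of arrays limits the precision. The methods' t-test is an unmoderated test on the same values. Coordinates are those of GRCm38.p6, and those of the array annotation (mm9) were not used. Promoter sequence is from RefSeq. All members were named, with at most 4 called genes for each other list and comparison by size of change. Members, lists and tests were chosen with earlier results of these data known. Alternatives were quantile normalization, normexp correction (on median spot and background signals, offset 50), the unscaled table, a filter on dim probes, other probes of a gene, other fits and levels, and leaving out each array. Keeping outlier spots and leaving out slide 1 were chosen after seeing the data.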

Additional observations from a re-analysis of the deposited data

Results flagged for a closer look

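The effect of passage on Fmod differed between the lines by −2.64 on the log2 scale (LM8 minus Dunn, standard error 0.31, adjusted p = 0.0104 in limma), by the test of the interaction of line and passage. Fmod was lower in late than in early LM8 cells in 3 of 3 arrays, by −3.02 to −3.15 on the slides, and the difference was −0.42 in Dunn cells, where 1 early array was left out. It was called under 18 of 20 alternatives.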

How the results depend on the processing

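The calls of Fmod in LM8 passage (16 of 16 alternatives), of Lum between the lines in early cells (16 of 16) and of Lum and Omd with passages pooled (22 of 22 each) were kept. The others depended on a setting, and the cause was not tested. In what follows, percentages in parentheses are the shares of all genes called under the same setting. The number of the 9 genes called between late and early Dunn cells was 0, but 3 at the level of the study (4.33%) and 1 in 1 fit over all 12 arrays (1.72%). Between late and early LM8 cells it was 2, but 1 in the unscaled table (1.52%), by the methods' t-test (1.14%) and in 1 fit (1.42%). Between the lines in early cells it was 2, but 1 with normexp correction (0.76%) and 1 to 3 when 1 array was left out. It was 1 without the 3rd array of Dunn (1.27%) or LM8 (1.07%), and 3 without the 2nd early Dunn array (13.8%). It was also 3, with Fmod added, with quantile normalization (9.74%), the filter on dim probes (21.3%), 1 fit (12.2%), outlier spots kept (2.89%) and at the level of the study (13.3%). The methods' t-test called 2 genes (3.41%), Lum and Fmod, but not Omd. In late cells it was 4, but 0 with the replicate block, by slide (0.387%), and 2 to 4 when 1 array was left out (0.884% to 8.76%). It was 3, without Epyc, with quantile normalization (8.17%), normexp correction (3.97%), the unscaled table (2.49%) and outlier spots kept (3.27%). The filter on dim probes called 5, with Dcn added (19.5%), and the methods' t-test called 4, with Dcn in place of Epyc (6.74%). With passages pooled it was 3, but 6 with no requirement on background (43.6%) and 3 to 4 when 1 array was left out (11.1% to 24.9%). The genes added without the requirement were Aspn, Epyc and Kera. Pooled, it was 4, with Dcn added, with the filter on dim probes (36.5%) and by the methods' t-test (24.3%), and 2, without Fmod, when slide 1 was left out (6.79%). The interaction was called for 1 gene, but for 0 in the unscaled table (0.303%) and without slide 1 (0.415%) and for 2 at the level of the study (5.02%). The replicate number is the slide, and 18 pairs of arrays with the same number in different groups had deviations that correlated from −0.25 to 0.68, 12 of them over 0.1. The block changed no call of the proteoglycan genes outside late cells, with counts of 0 (0%), 2 (1.58%), 2 (1.19%), 3 (23.9%) and 1 (0.502%).

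The direction of small differences changed with the scaling. In the unscaled table, Bgn (0.82) and Fmod (0.30) turned in Dunn passage, Dcn (0.17) in LM8 passage, Dcn (1.41), Bgn (1.05) and Ogn (1.16) between early lines, Dcn (0.17), Bgn (0.70) and Ogn (0.58) between late lines, Dcn (0.65), Bgn (0.87) and Ogn (0.87) with passages pooled, and Bgn (−0.35) and Ogn (−0.58) in the interaction. With quantile normalization, Dcn turned between early lines (0.065), and Ogn between late lines (0.45) and with passages pooled (0.050). With normexp correction, Epyc turned in Dunn passage (−0.76) and in the interaction (0.59), Dcn between early lines (0.10) and Ogn in the interaction (−0.35). With outlier spots kept, Bgn turned in Dunn passage (0.014) and Ogn in the interaction (−0.13), and without slide 1 Dcn turned in Dunn passage (−0.26) and Bgn between late lines (0.076). None of these differences was called. When 1 array was left out, the difference ranged from −0.29 to 0.62 for Dcn and −0.51 to 0.18 for Bgn in Dunn passage, −0.27 to 0.33 for Bgn in LM8 passage, −0.80 to 0.12 for Dcn and −1.35 to 0.52 for Ogn between early lines, −0.49 to 0.19 for Bgn and −0.61 to 0.21 for Ogn between late lines, −0.75 to 0.36 for Ogn with passages pooled, and −0.81 to 0.11 for Dcn, −0.13 to 0.61 for Bgn and −0.80 to 1.07 for Ogn in the interaction.

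Over all genes, higher genes were 37.2% of those called in LM8 passage (53.9% in the unscaled table), 35.7% between early lines (91.6%), 33.6% between late lines (63.1%), 25.4% with passages pooled (95%) and 57.4% in the interaction (26.2%). In Dunn passage 1 gene was called, and 55 with quantile normalization. Aspn and Kera in all groups, Omd in late Dunn cells and Epyc in all but late Dunn cells have upper limits alone.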
